A study of Homo sapiens with 24 samples.

Results

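The transcripts described here are those of 10 genes of the integrated stress response and of serine synthesis: ATF4, DDIT3, ASNS, TRIB3, CHAC1, PSAT1, PHGDH, PSPH, SESN2 and DDIT4. They were chosen by name, and all 10 were found by their Ensembl identifiers among the 12285 genes of the expression table. RNA sequencing was done on K562, an established human erythroleukaemia cell line that grows in suspension, in RPMI medium with 10% BCS (bovine calf serum) and P/S. Cells were synchronised by centrifugal elutriation, which separates cells by size, and 1 library was made at each of 24 time points, every 2 h from 0 h to 46 h. All libraries share this treatment, and no library came from cells that were left unsynchronised or were given a stressor. The labels name no replicates and do not say whether the time points came from 1 culture. The p-values of limma below therefore rest on the spread of single time points about a fitted curve. Those of JTK_CYCLE set the order of a gene's levels against random orders. For both, successive time points may not be independent.

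In the integrated stress response, kinases that sense a lack of amino acids, misfolded proteins, double-stranded RNA or a lack of heme phosphorylate the translation factor eIF2, and most protein synthesis slows while translation of the transcription factor ATF4 increases. ATF4 then raises transcription of genes for amino acid uptake and synthesis, and of DDIT3, which encodes the transcription factor CHOP. Serine is made from a glycolytic intermediate by PHGDH, PSAT1 and PSPH, which act in that order, and these genes are known targets of ATF4. Because ATF4 is controlled largely at translation, the level of its transcript is not a measure of its protein.

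ATF4 binds as a dimer with a C/EBP protein to an element with the letters TGATGNAA, which stands in the control regions of several of the genes. This element was searched on both strands of RefSeq windows (GRCh38.p14) that run from 250 bases before to 50 bases after a gene's start. Windows were found for 9 of the 10 genes, 14 windows in all, and PSPH had none. The element was in the windows of ASNS and CHAC1, shown here on the strand of the gene with the matched letters in capitals.
ASNS, chr7:97872458-97872487, minus strand: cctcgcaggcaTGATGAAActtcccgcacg
CHAC1, chr15:40953251-40953280, plus strand: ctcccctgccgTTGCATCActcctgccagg
In ASNS the letters read along the gene, from position -68 relative to its start, and in CHAC1 they read on the opposite strand, from position -209. The element was in 3.62% of 35116 windows, and in those of 4.46% of 27305 genes. Among the other known targets of ATF4 and CHOP that are in the table, 7 of 23 genes with a window held it (30.4%). A match is a description of letters in this window, and no binding was measured.

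Transcript levels are in FPKM, which scales the sequenced fragments of a gene by the length of its transcript and by the size of the library, so that genes can be set side by side. No read counts were used, so the depth of each library is unknown and no counting interval is given. All 12 K562 markers looked for, among them GATA1 and the globins HBG1 and HBG2, were in the table, and their summed level ran from 2982 FPKM (18 h) to 8192 FPKM (10 h). Of fibroblast markers 1 of 5 was in the table (COL1A2, at most 3.94 FPKM) and among lymphoid markers CD3D was at 4.20 to 12.9 FPKM and PTPRC at 14.3 to 44.6 FPKM. The libraries of 16 h and 18 h stood apart from the rest across the transcriptome. Their distribution of levels lay at a Kolmogorov-Smirnov distance of 0.349 and 0.385 from that of 14 h, against at most 0.156 for any other time point. Below, the reference for a gene is its median over the 18 middle hours, from 4 h to 42 h without 16 h and 18 h. Differences on the log2 scale are differences of log2(FPKM + 1), and the 12253 genes whose mean level reached 1 FPKM were tested, all 10 members included.

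ATF4, the transcription factor at the centre of the response, lay between 77.1 FPKM (4 h) and 117 FPKM (12 h) over the middle hours, with a median of 95.1 FPKM. It was highest at 0 h, at 147 FPKM, and next highest at 46 h, at 145 FPKM. At 2 h it was at 109 FPKM and at 44 h at 126 FPKM, so that both ends of the series stood above or near the top of the middle range. At 16 h and 18 h it was at 87.6 and 86.9 FPKM, inside the middle range. DDIT3, which encodes CHOP, had the same shape with larger ends. Its middle range was 14.7 FPKM (32 h) to 24.0 FPKM (14 h) with a median of 20.0 FPKM, and it stood at 49.1 FPKM at 0 h, 28.9 FPKM at 2 h, 31.3 FPKM at 44 h and 54.9 FPKM at 46 h. At 16 h and 18 h DDIT3 was at 11.4 and 11.7 FPKM, below every other time point.

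TRIB3, a pseudokinase that CHOP and ATF4 induce and that restrains them in turn, varied from 21.4 FPKM (32 h) to 38.2 FPKM (14 h) over the middle hours, with a median of 28.4 FPKM. At 0 h and 2 h it was at 33.2 and 33.6 FPKM and at 44 h at 30.7 FPKM, all inside that range, and it reached 53.7 FPKM at 46 h. The lowest levels of TRIB3 were those of 16 h and 18 h, at 17.9 and 17.1 FPKM. CHAC1, an enzyme that breaks down glutathione, was the least abundant of the 10 genes over the middle hours, from 2.77 FPKM (4 h) to 8.26 FPKM (14 h) with a median of 5.12 FPKM. It was at 6.91 FPKM at 0 h and 5.0 FPKM at 42 h, then at 21 FPKM at 44 h and 65.2 FPKM at 46 h. As a ratio of its highest level to its median, no other member differed as much.

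SESN2 and DDIT4 encode Sestrin 2 and REDD1, inhibitors of the growth kinase complex mTORC1. SESN2 lay between 10.2 FPKM (6 h) and 19 FPKM (20 h) over the middle hours, with a median of 14.0 FPKM. It was at 22.0 FPKM at 0 h, 19.7 FPKM at 2 h, 25 FPKM at 44 h and 57.4 FPKM at 46 h, all above the middle range. DDIT4 was the most changeable of the abundant members, with a middle range of 50.5 FPKM (4 h) to 144 FPKM (14 h) and a median of 93.7 FPKM. It stood at 185 FPKM at 0 h, at 437 FPKM at 44 h and at 787 FPKM at 46 h, the highest level of any member at any time point. At 16 h and 18 h SESN2 was at 10.3 and 8.72 FPKM, and DDIT4 at 62.5 and 68.4 FPKM, the lower part of their ranges or below it.

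ASNS, which makes asparagine, was the steadiest member in the middle hours, from 149 FPKM (38 h) to 183 FPKM (20 h) with a median of 161 FPKM, and it was also the most abundant of the 10 there. It was at 192 and 197 FPKM at 0 h and 2 h, at 222 FPKM at 44 h and at 368 FPKM at 46 h. At 16 h and 18 h it was at 204 and 224 FPKM, above the middle range where most of the other members were low. A pseudogene copy, ASNSP1, was listed at 0.974 to 4.37 FPKM, and how reads common to both were shared out is not known.

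PHGDH, the first enzyme of serine synthesis, ran from 23.7 FPKM (8 h) to 37.2 FPKM (26 h) over the middle hours, with a median of 29.5 FPKM. It was at 31.0 FPKM at 0 h, 33.1 FPKM at 44 h and 57.7 FPKM at 46 h, and at 16.9 and 16.8 FPKM at 16 h and 18 h. PSAT1, the aminotransferase of the second step, had a wider middle range, from 45.8 FPKM (6 h) to 101 FPKM (22 h) with a median of 66.1 FPKM. Each time point from 8 h to 22 h was above the one before, up to 101 FPKM. PSAT1 was at 64.9 FPKM at 30 h, 53.0 FPKM at 32 h and 63.6 FPKM at 34 h. It was at 80.1 FPKM at 44 h and 135 FPKM at 46 h. Its levels at 16 h and 18 h, 85.2 and 90.8 FPKM, lay on the line between 14 h (76.6 FPKM) and 20 h (99.4 FPKM). PSPH, the phosphatase of the last step, had a median of 19.9 FPKM and a middle range of 11.6 FPKM (6 h) to 26.4 FPKM (20 h). It was at 21.4 FPKM at 0 h, 18.4 FPKM at 44 h and 28.5 FPKM at 46 h, which is little above its level at 20 h. PSPH also has a pseudogene copy in the table, PSPHP1, at 1.13 to 3.87 FPKM, and its values are uncertain to that extent.

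**Figure D1:**
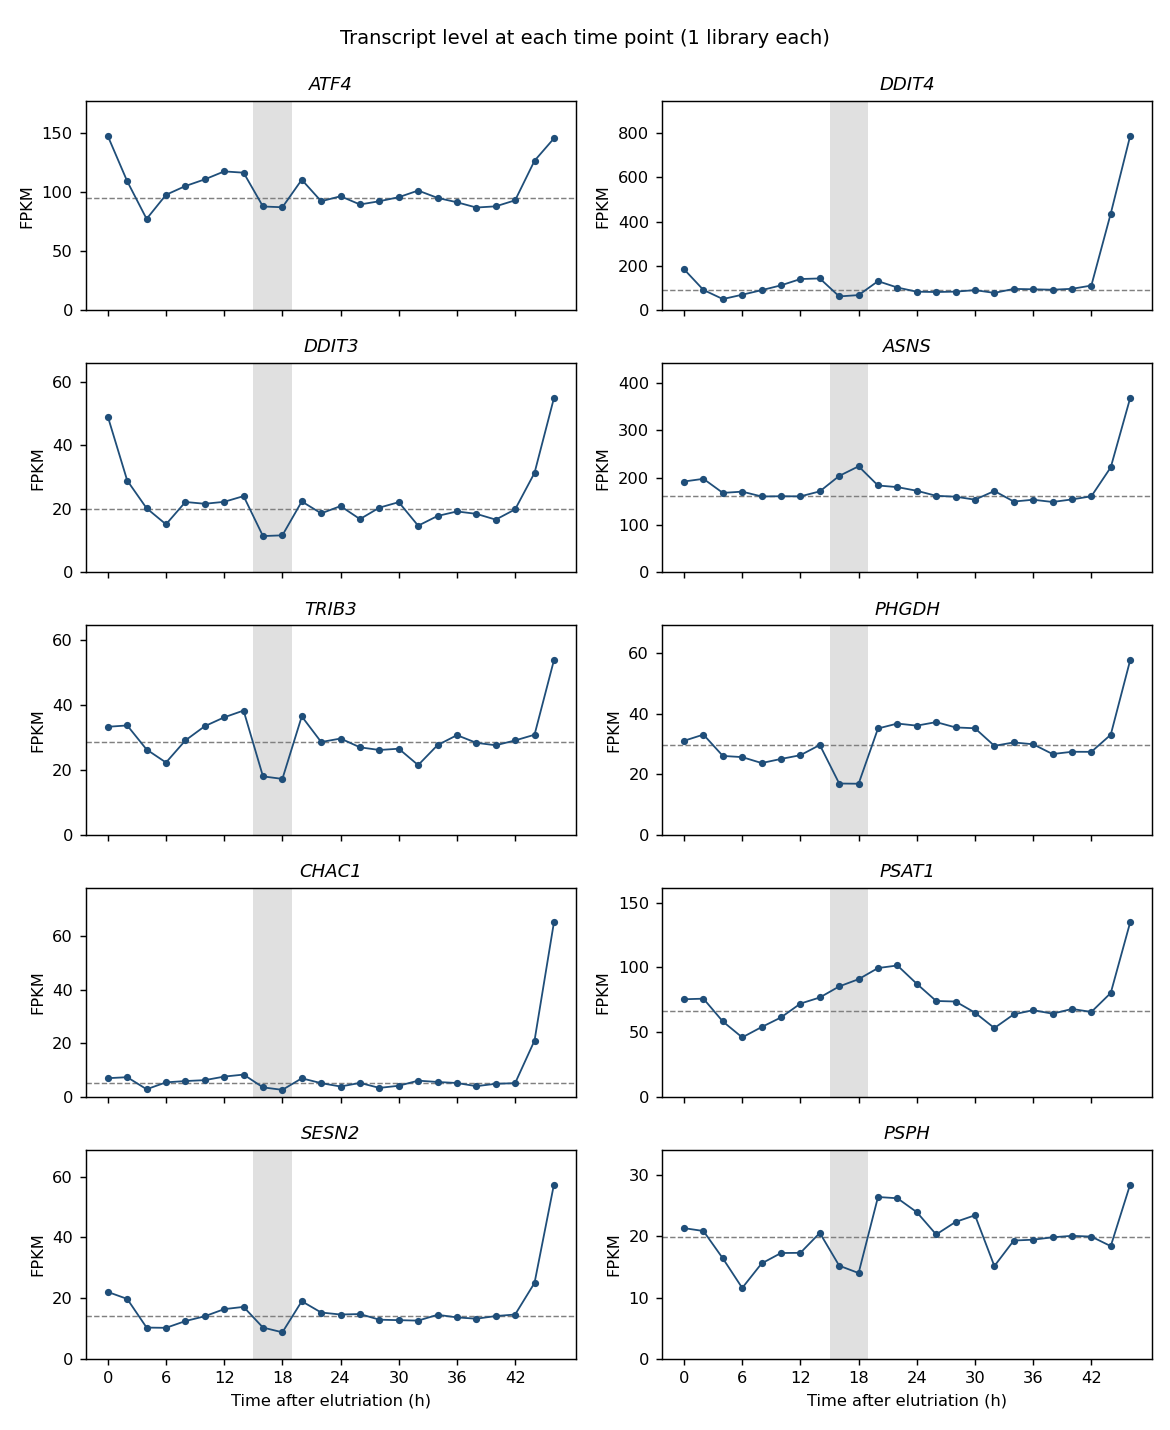
Level of each of the 10 genes in FPKM (vertical axis, from 0) against time after elutriation in hours (horizontal axis), 1 library per point, with the dashed line at the median of the 18 middle hours and the hours 16 h and 18 h in grey. The last point, 46 h, is the highest of the series in 9 genes, and ATF4 is highest at 0 h.

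In the order of the 24 levels of a gene, most neighbours could not be told apart. The spread of a single time point was taken from the differences between a time point and the mean of its neighbours, and a step in the order was set against that SD for a difference of 2 values. Of 23 steps in the order, 1 to 3 per gene were larger than that. The SD was 0.08 (log2) for ASNS, 0.09 for PHGDH and 0.10 for ATF4, and it was largest for CHAC1 (0.33) and DDIT4 (0.25). The differences used include those that touch 44 h and 46 h. Without them the SD was 0.30 for CHAC1, 0.19 for DDIT3, 0.17 for PSPH and 0.16 for DDIT4.

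At 46 h all 10 genes stood above their reference. The level was 12.7 times the reference for CHAC1, 8.40 times for DDIT4, 4.09 times for SESN2, 2.74 times for DDIT3, 2.29 times for ASNS and 2.04 times for PSAT1. The remaining members were at 1.95 times (PHGDH), 1.89 times (TRIB3), 1.52 times (ATF4) and 1.43 times (PSPH). On the log2(FPKM + 1) scale 6 of the 10 were at least 2-fold higher, where 0.930% of all genes tested were, and the median difference of the 10 was 1.10 against -0.00 over all genes. With 1 library at 46 h there is no test of these values, and the choice of 46 h as a time point to describe was made after the levels were seen. The library of 46 h had the lowest summed level of the table (456791 FPKM, against up to 520382 FPKM outside 16 h and 18 h). PTPRC, a leukocyte marker, was at its highest there (44.6 FPKM), with CD3D at 10.1 FPKM, and the part of these in the result was not tested. Of the K562 markers, GATA1 was at 130 FPKM against its median of 133 FPKM, while TFRC was at its lowest (210 FPKM, median 265 FPKM) and HBZ (208 FPKM against 314 FPKM), HBG1 (674 FPKM against 880 FPKM), HBG2 (1941 FPKM against 2434 FPKM) and KLF1 (68.3 FPKM against 83.6 FPKM) were below their medians. In bulk RNA a change in the share of cells that hold a transcript and a change in its amount per cell cannot be told apart.

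Ranked by their difference at 46 h among the 12253 genes, CHAC1 was first, DDIT4 second, SESN2 at rank 8 and DDIT3 at rank 33. ASNS was at rank 60, PSAT1 at 107, PHGDH at 136, TRIB3 at 164, ATF4 at 460 and PSPH at 728. The 5 genes ranked between DDIT4 and SESN2 were GDF15, a secreted stress cytokine (60.3 FPKM against a reference of 10.9 FPKM), ATF3, a stress-induced transcription factor (36.8 FPKM against 7.16 FPKM), RPS26P19, a pseudogene of a ribosomal protein whose reads may come from its parent or other copies (7.86 FPKM against 1.05 FPKM), FUT1, a fucosyltransferase (19.2 FPKM against 3.70 FPKM), and INHBE, an inhibin subunit (15.9 FPKM against 3.28 FPKM). They are named for this rank, after their values were seen.

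The end of the series was unlike the hours before it in most members, also by size of step. From 42 h to 46 h the difference exceeded each of the 16 differences over 4 h that touch none of 16 h, 18 h, 44 h and 46 h in 9 of the 10 genes, PSPH being the exception, where 7.03% of all genes did so. In 7 of the 10 that last step was also at least 2-fold, against 0.522% of all genes. The step from 42 h to 46 h was 1.56-fold in ATF4, whose largest other upward step was 0.44 on the log2 scale against 0.64 for the last. In ASNS the last step was 1.19 (log2) and the largest other 0.11, and in CHAC1 the last was 3.45 and the largest other 0.86. In PSPH the last was 0.49 and the largest other 0.54, from 6 h to 10 h. That step starts from the 6 h library, where PSPH was at 11.6 FPKM, against 16.4 FPKM at 4 h and 15.6 FPKM at 8 h. The rise to 46 h had begun by 44 h in some members. At 44 h CHAC1 was at 4.10 times and DDIT4 at 4.66 times its reference, and these were the 2 members at least 2-fold higher there, against 0.261% of all genes. From 40 h to 44 h the difference exceeded each of the same 16 in 7 of the 10 genes, against 2.19% of all genes, while TRIB3, PSAT1 and PSPH stayed inside their earlier range of steps.

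**Figure D2:**
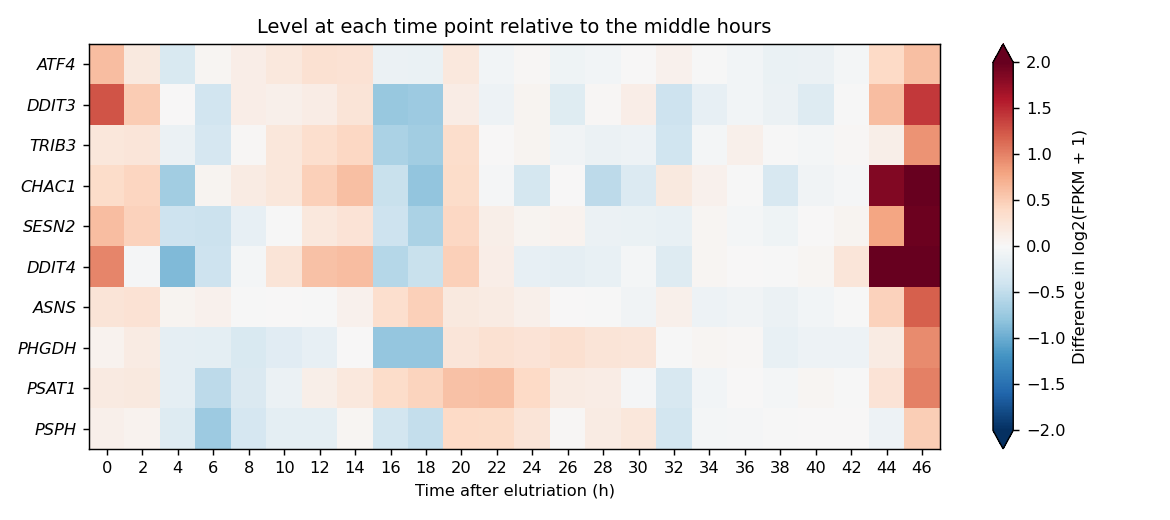
Difference in log2(FPKM + 1) between each time point (columns, hours after elutriation) and the median of the middle hours for each gene (rows), in red above and blue below, with the colour scale ending at 2 in either direction. The column of 46 h is red in all 10 rows, and the columns of 16 h and 18 h are blue in all rows but ASNS and PSAT1.

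At 0 h all 10 stood above their reference, by a median of 0.31 (log2) against -0.01 over all genes. DDIT3 was at 2.45 times, DDIT4 at 1.98 times, SESN2 at 1.57 times and ATF4 at 1.55 times the reference. The others were closer to it, at 1.35 times for CHAC1, 1.19 times for ASNS, 1.17 times for TRIB3 and 1.14 times for PSAT1. PSPH was at 1.07 times and PHGDH at 1.05 times. At least a 2-fold difference on the log2(FPKM + 1) scale was reached by DDIT3, 1 of the 10, against 0.702% of all genes, and DDIT4 missed it at 0.98. By 4 h DDIT4 was at 50.5 FPKM, its lowest level, and ATF4 at 77.1 FPKM, its lowest too. The order of the members therefore differed between the ends: CHAC1 led at 46 h and stood at 1.35 times its reference at 0 h, while DDIT3 led at 0 h.

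Between these ends the number of members above their reference varied. At 4 h 2 of the 10 genes were above their reference, by 12 h 7 of them were, and all 10 were at both 14 h and 20 h, with 2 of them at 16 h and at 18 h in between. On the second day the counts lay between 0 (38 h) and 8 (24 h) until 42 h. The share of all genes above their reference was not counted, so these counts have no such share beside them. Over all genes the median difference was 0.11 (log2) in the 16 h library and 0.12 in that of 18 h. For the other hours named here it lay between -0.02 (4 h) and -0.01 (12 h). The range over the middle hours was 1.23-fold for ASNS and 1.52-fold for ATF4, and it was widest for CHAC1 at 2.98-fold and DDIT4 at 2.84-fold.

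Pairs of members went together to different degrees. Over 22 time points, leaving out 16 h and 18 h, Pearson's r of log2(FPKM + 1) ran from 0.21 to 0.94 over the 45 pairs, with a median of 0.73. Over the 18 middle hours it ran from -0.18 to 0.90 with a median of 0.42, and 5 pairs were negative. All pairs share the same libraries, and the time points at both ends are in the first range of r and not in the second.

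The departure at 16 h and 18 h was tested with limma as a term of its own, beside the day and a 24 h wave. The question is how far the libraries that stand apart bear on these genes. Of the 10, 6 fell below the fitted curve at an adjusted p under 0.05 and 0 rose, while of all genes 25.8% fell and 41.2% rose. DDIT3 fell by 1.08 ± 0.32 (log2, SE, adjusted p = 0.00544), TRIB3 by 1.03 ± 0.19 (adjusted p = 4.9e-05) and PHGDH by 0.74 ± 0.16 (adjusted p = 0.000263). PSPH fell by 0.50 ± 0.18 (adjusted p = 0.0154), SESN2 by 0.93 ± 0.33 (adjusted p = 0.0168) and DDIT4 by 1.33 ± 0.58 (adjusted p = 0.0471). ATF4 at -0.38 ± 0.18 (adjusted p = 0.0646) and CHAC1 at -1.27 ± 0.65 (adjusted p = 0.0882) did not pass. ASNS, at 0.23 ± 0.19 (adjusted p = 0.284), and PSAT1, at 0.09 ± 0.18 (adjusted p = 0.669), had estimates above 0.

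The libraries that stand apart were also compared by GC content, which differs among the members. ASNS and PSAT1 have transcripts of 43.9% and 44.1% GC, below the median gene at 49.1%, and these are the 2 members with an estimate above 0. The other 8 lie between 50.6% (DDIT3) and 65.1% (DDIT4). In order of GC content, their departures began with DDIT3 (-1.08), PSPH (-0.50), ATF4 (-0.38, at 55.4% GC) and PHGDH (-0.74). SESN2 (-0.93), CHAC1 (-1.27), TRIB3 (-1.03) and DDIT4 (-1.33) followed. Apart from DDIT3, the departure was mostly larger at higher GC content, though not in strict order. When a smooth trend on GC content was removed from each library, DDIT3 (-1.19), TRIB3 (-0.51), PHGDH (-0.55) and PSPH (-0.45) still passed the test, 4 of the 10, all lower, against 28.2% of all genes that were lower and 29.3% higher. SESN2 at -0.57 (adjusted p = 0.140) and DDIT4 at -0.60 (adjusted p = 0.375) no longer did, and ASNS (-0.18) and PSAT1 (-0.32) then lay below 0. When the library of 18 h was left out, TRIB3 and PHGDH passed, 2 of the 10, both lower, against 20.3% of all genes that were lower and 34.0% higher. DDIT4 did not pass when 16 h or most of the other single time points were left out. When 44 h and 46 h were left out, an alternative chosen after the levels were seen, 8 of the 10 passed, with CHAC1 at -0.99 (adjusted p = 0.000666) and ASNS at 0.30 (adjusted p = 0.000409) in addition. Of these 7 were lower, against 25.8% of all genes, and 1 was higher, against 41.4%.

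**Figure D3:**
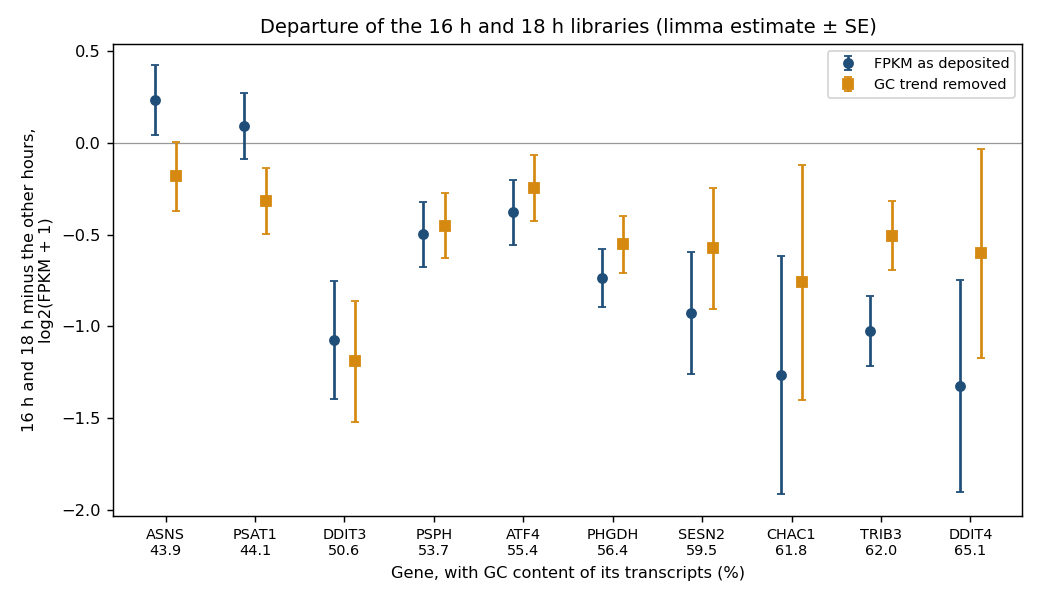
Limma estimate with its SE (bars) of the difference between the hours 16 h and 18 h and the other time points, in log2(FPKM + 1), for each gene in the order of the GC content of its transcripts in percent, as deposited (circles) and with a GC trend removed (squares). ASNS and PSAT1, at 43.9% and 44.1% GC, lie above 0 as deposited, and all 10 estimates lie below 0 once the trend is removed.

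The second day was compared with the first at the same hours of a 24 h cycle, to ask whether the members' level shifted over the culture. None of the 10 passed the test in limma, against 17.6% of all genes that rose and 11.9% that fell, and 1 of the 10 had an unadjusted p under 0.05, as 40.5% of all genes did. That gene was PHGDH, with a median of 28.0 FPKM on day 1 and 31.8 FPKM on day 2 and a difference of 0.19 ± 0.08 (log2, SE, adjusted p = 0.0750). It was higher on day 2 at 8 of the 10 hours compared, while TRIB3 was higher at 2 of them, and ATF4 and ASNS at 3. With the same hours of both days paired (10 pairs, an alternative added after the data were seen), PHGDH passed, at 0.24 ± 0.07 (adjusted p = 0.0310), and none of the other 9 did, against 12.6% of all genes that were higher and 7.04% that were lower. ATF4 differed by -0.13 ± 0.09 (adjusted p = 0.298), with day 1 at 77.1 to 147 FPKM and day 2 at 86.7 to 145 FPKM, so that the days overlapped. The errors of CHAC1 (0.06 ± 0.33) and DDIT4 (0.13 ± 0.29) went with a residual SD of 0.83 and 0.74 (log2), against 0.22 for ATF4.

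The last 2 time points moved the comparison of days. Without 44 h and 46 h, ASNS was lower on day 2, at -0.12 ± 0.03 (log2, SE, adjusted p = 0.0147), as were TRIB3, at -0.21 ± 0.07 (adjusted p = 0.0279), and CHAC1, at -0.36 ± 0.12 (adjusted p = 0.0328). These 3 of 10 passed by limma's test where 10.3% of all genes were lower and 15.6% higher, and this alternative was chosen after the levels were seen. CHAC1, PSAT1, SESN2 and DDIT4 changed the sign of their estimate with it, and of these CHAC1 passed the test.

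**Figure D4:**
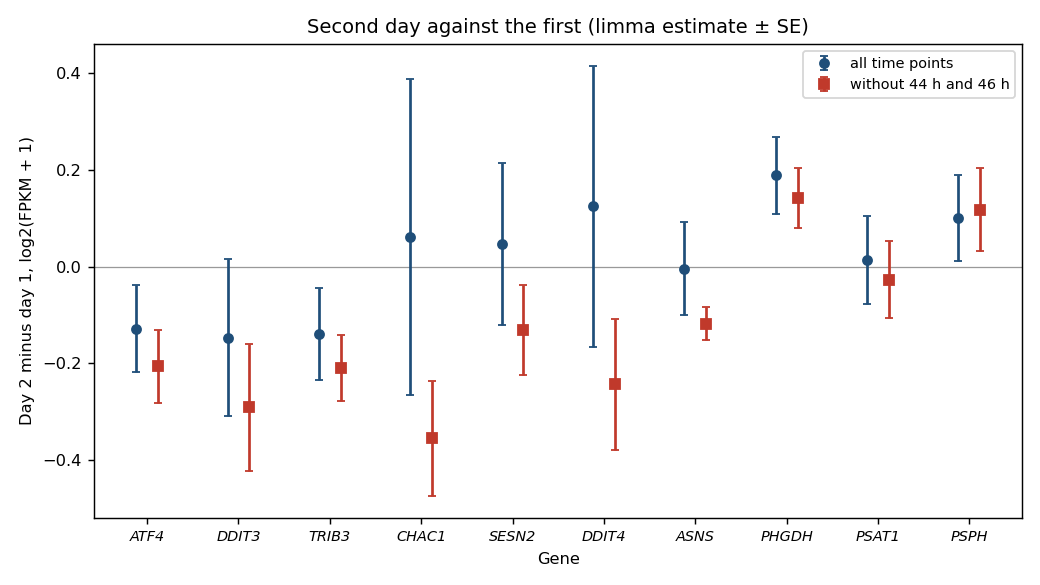
Limma estimate with its SE (bars) of day 2 minus day 1, in log2(FPKM + 1), for each gene with all 24 time points (circles) and without 44 h and 46 h (squares). With all time points none of the 10 passed the test, and without the last 2 the bars of CHAC1 and DDIT4 are shorter and their estimates lie below 0.

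A 24 h pattern was looked for with the JTK_CYCLE statistic on all 24 time points, the statistic the study used to rank periodic genes. PSAT1 passed, 1 of the 10 genes, with an adjusted p of 0.00354 and a peak at 20 h, where 5.74% of all genes passed. Its highest levels before 46 h, from 90.8 FPKM at 18 h to 101 FPKM at 22 h, fell on the first day, and at 42 h, which is 18 h into the second, it was at 65.5 FPKM, with 135 FPKM at 46 h. By an F test of a 24 h wave in limma 5 of the 10 passed, against 25.3% of all genes: PSAT1 (adjusted p = 0.00254), PHGDH (adjusted p = 0.0100), PSPH (adjusted p = 0.0184), SESN2 (adjusted p = 0.0367) and ASNS (adjusted p = 0.0430). The fitted peaks of these 5 lay between 20.3 h and 23.1 h, hours that include 46 h, the 22 h of the second day. Without 44 h and 46 h PSAT1 (adjusted p = 0.00544), PHGDH (adjusted p = 0.0146), PSPH (adjusted p = 0.0175) and ASNS (adjusted p = 0.0217) still passed limma's F test, against 20.0% of all genes, and SESN2 did not (adjusted p = 0.0735). ATF4 passed neither test.

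Whether the wave was the same on both days was tested by letting it differ between them. In limma 0 of the 10 passed, against 5.20% of all genes, and 3 had an unadjusted p under 0.05, as 24.3% of all genes did: PSPH (adjusted p = 0.0706), PSAT1 (adjusted p = 0.104) and PHGDH (adjusted p = 0.161). These are the 3 enzymes of serine synthesis. Without 44 h and 46 h, PSAT1 (adjusted p = 0.0191) and PHGDH (adjusted p = 0.00568) passed, against 4.95% of all genes, and without 46 h alone all 3 passed, against 6.31% of all genes. PSAT1 had a fitted amplitude of 0.50 (log2) on day 1 and 0.34 on day 2, PSPH of 0.44 and 0.17, and PHGDH of 0.27 and 0.29, with the 46 h library included.

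The other known genes of the pathway were described from lists, by their counts at 46 h and 0 h. Of 31 other targets of ATF4 and CHOP, 13 were at least 2-fold above their reference at 46 h (0.930% of all genes were) and none was as far below it, with a median difference of 0.88 (log2). They include the cystine transporter SLC7A11 (33.6 FPKM against 8.80 FPKM), CTH, which makes cysteine (52.6 FPKM against 13.6 FPKM), and the amino acid transporter SLC38A2 (208 FPKM against 72.4 FPKM). ATF5, a transcription factor of the same family, was at 30.0 FPKM against 35.6 FPKM, and PYCR1, of proline synthesis, at 120 FPKM against 112 FPKM. At 0 h 3 of the 31 were at least 2-fold higher: ATF3 at 5.20 times, BBC3, a promoter of cell death, at 2.80 times and KLHL24 at 2.43 times.

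The transcripts of the regulators upstream did not show this, and the activity of their proteins was not measured. Among 18 genes for the eIF2 kinases, the subunits of eIF2 and eIF2B and their partners, none was 2-fold higher or lower at 46 h, and the median was -0.01 (log2). Their levels at 46 h included 4.34 FPKM against 4.44 FPKM for EIF2AK3, which encodes the kinase PERK, and 16.9 FPKM against 17.2 FPKM for EIF2AK4, which encodes GCN2. The 16 genes of glycine and one-carbon metabolism, some of which are also in the list of ATF4 targets, had a median of 0.12, and the mitochondrial folate enzyme ALDH1L2 (10.9 FPKM against 4.40 FPKM) was the 1 at least 2-fold higher. MTHFD2, of the same mitochondrial pathway, was at 261 FPKM against 142 FPKM. Of 16 genes through which mTORC1 is controlled, none was 2-fold higher, with a median of 0.02, and SESN1, the paralog of SESN2, was at 7.40 FPKM against 6.58 FPKM.

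For genes that respond to stress of the endoplasmic reticulum, the median at 46 h was -0.15 (log2) over 17 genes. HERPUD1, of protein degradation at that membrane, was the 1 at least 2-fold higher, at 60.5 FPKM against 23.4 FPKM. HSPA5, the chaperone BiP, was at 103 FPKM against 113 FPKM at 46 h, and at 194 FPKM at 0 h. DDIT4 is also a known gene of the hypoxia response, and 13 genes of that response had a median of 0.01 at 46 h, with VEGFA (108 FPKM against 52.8 FPKM) at least 2-fold higher. At 0 h 6 of those 13 were at least 2-fold higher and all 13 above their reference, with a median of 0.99, among them ANKRD37 at 4.02 times and PFKFB4 at 3.15 times. Whether these lists share a cause with the 10 genes was not tested.

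**Figure D5:**
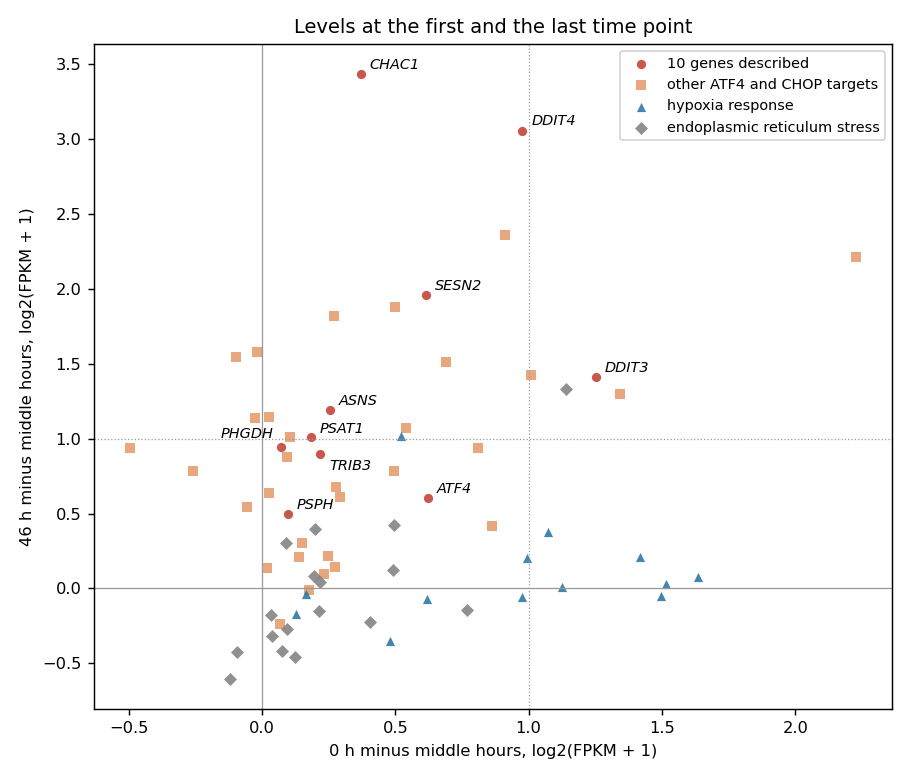
Difference from the median of the middle hours in log2(FPKM + 1) at 0 h (horizontal axis) and at 46 h (vertical axis) for the 10 genes (circles, named) and for other targets of ATF4 and CHOP, hypoxia genes and genes of endoplasmic reticulum stress, with dotted lines at a 2-fold difference. The 10 genes lie above 0 on both axes, and the hypoxia genes lie to the right of 0 with a median of 0.01 on the vertical axis.

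Between the days, calls by limma's test were counted in each list, where 17.6% of all genes were higher and 11.9% lower. Of the 31 other ATF4 and CHOP targets 1 was higher, ALDH1L2 at 0.37 ± 0.10 (log2, SE, adjusted p = 0.00638), and 4 were lower: ATF5 at -0.34 (adjusted p = 0.00181), PPP1R15A, the phosphatase subunit GADD34 that helps to reverse eIF2 phosphorylation, at -0.28, SLC3A2 at -0.26 and PYCR1 at -0.14. Of the 18 genes of the eIF2 list 2 were higher (EIF2S3 and GCN1) and 2 lower (OMA1 and EIF2B4), and of the 16 of the one-carbon list 3 were higher (ALDH1L2, MTHFD2L and SFXN1) and TYMS was lower. Of the 16 genes of the mTORC1 list 1 was higher (WDR59) and 4 lower (SEH1L, NPRL2, TBC1D7 and TSC2), of the 17 of the endoplasmic reticulum list 2 were lower (CRELD2 and CALR) and of the 13 of the hypoxia list 3 were lower (LDHA, SLC2A1 and EGLN1).

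The genes whose levels were most like those of each member were looked up by Pearson's r over 22 time points (16 h and 18 h left out), as a description. The search covered the 7148 genes that had a symbol and a mean level of at least 10 FPKM. ATF4 was most like HERPUD1 (r = 0.88), and DDIT3 most like ATF3 (r = 0.92). ASNS was most like CTH (r = 0.96), SESN2 most like SLC7A11 (r = 0.97) and CHAC1 most like DDIT4 (r = 0.94). Among the 7148 genes DDIT4 was most like SESN2 (r = 0.93). CHAC1, at a mean of 8.37 FPKM, was not one of the 7148, and its r with DDIT4 was higher. TRIB3 was most like CEBPG (r = 0.87), which encodes a C/EBP partner of ATF4. PSAT1 was most like CLIC4 (r = 0.93), PHGDH most like PACSIN2 (r = 0.95) and PSPH most like GSKIP (r = 0.89), 3 genes outside the lists. The second and the third in order were ATF3 (r = 0.87) and NUDT4 (0.86) for ATF4, CEBPG (0.87) and SESN2 (0.85) for DDIT3, LINC00662 (0.92) and CARS1 (0.91) for ASNS, MTHFD2 (0.85) and SLC7A11 (0.84) for TRIB3, and LINC00662 and SLC7A11 (both 0.93) for CHAC1. For PSAT1 they were PCK2 (r = 0.92) and GFPT1 (0.90), for PHGDH WARS1 (0.91) and GFPT1 (0.90), for PSPH PSAT1 and GFPT1 (both 0.88), for SESN2 CARS1 (0.96) and MBNL2 (0.94), and for DDIT4 SLC7A11 (0.92) and SLC38A2 (0.91). Without 44 h and 46 h, over 20 time points, r was 0.82 for ASNS with CTH, 0.88 for SESN2 with SLC7A11 and 0.72 for CHAC1 with DDIT4, and for PSPH with GSKIP it was 0.89 again. With LINC00662, r was then 0.43 for ASNS and 0.49 for CHAC1. In 9 of the 10 leading pairs r was lower without 44 h and 46 h, and all pairs share their libraries.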

How the data were processed

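The authors aligned the reads with STAR and quantified them with Cufflinks2. Cuffnorm and the build GRCh37 are named in the submitters' processing notes, and versions and annotation are not given in the sources used here. The deposited table holds FPKM values, in which each of 12285 genes has at least 1 FPKM at 12 or more time points. A second deposited table holds scores, which the authors made by Z-score and quantile normalization, used here as 1 alternative. Samples were placed by the time in their labels, and columns by the same labels.

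The 10 genes and the gene lists were chosen with earlier results of these data known. The genes named are the 10, the 3 genes most like each by Pearson's r, and up to 4 per list with the largest day difference among those past the threshold. Others were named after their values were seen.

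Levels were tested as log2(FPKM + 1) in limma 3.58.1 (R 4.3.3; moderated test with a mean trend), in the 12253 genes whose mean level reached 1 FPKM. The terms were day (24 h to 46 h against 0 h to 22 h), the cosine and sine of a 24 h period and an indicator of 16 h and 18 h. P-values were Benjamini-Hochberg adjusted over all genes tested, with a threshold of 0.05. The JTK_CYCLE statistic used 12 phases and an exact null on FPKM. The scripts were tested on simulated data. GC content came from GENCODE 29 transcripts (lowess span 0.3), symbols matched for 12123 of 12285 identifiers, and promoter windows from RefSeq (GRCh38.p14). The other alternatives were a pseudocount of 0.1, no filter or a filter at a mean of 10 FPKM, median centring, upper-quartile scaling, a linear term in time, PCHIP interpolation over 16 h and 18 h, periods of 20 h and 28 h, pairing the hours of both days, and leaving out single time points. Depth is unknown, so no precision from counting is given. One of the marker genes looked for is not reported here.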

Additional observations from a re-analysis of the deposited data

How the results depend on the processing

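A fit with a replicate block could not be made because the labels carry no replicate numbers, so the same hours of both days were paired instead. Of the 10 genes, 6 were called at 16 h and 18 h, and 2 to 9 when single time points were left out. DDIT4 lost this call without most of them (largest adjusted p 0.161, without 18 h). ATF4 gained it in limma with median centring (-0.50, adjusted p = 0.0159) and upper-quartile scaling (-0.63, adjusted p = 0.00315). It also did so when 4 h, 22 h, 40 h or 46 h was left out, and CHAC1 and ASNS did so without 46 h. ASNS reversed with upper-quartile scaling (-0.0218) and with the GC trend removed (-0.18), and PSAT1 with both (-0.16, -0.32) and with median centring (-0.0273). Over all genes 8201 were called, 6648 to 8316 with single time points left out, and 5328 among genes of at least 10 FPKM. Between the days 0 of the 10 were called, 0 to 1 with single time points left out, 1 with a linear term, 1 with the hours of both days paired (PHGDH) and 3 without 44 h and 46 h. Over all genes this was 3617, 3007 to 3899, 2401 with the hours paired, and 2142 among genes of at least 10 FPKM. PSAT1 reversed with median centring (-0.0170) and the GC trend removed (-0.00107), and ASNS with a linear term (0.0693) and with the hours paired (0.0367). Without 44 h and 46 h reversals were CHAC1 (-0.36), PSAT1 (-0.0267), SESN2 (-0.13) and DDIT4 (-0.24). With single time points left out the estimates ran from -0.0841 to 0.0224 for ASNS, -0.0375 to 0.0472 for PSAT1, -0.192 to 0.156 for CHAC1, -0.0833 to 0.0880 for SESN2 and -0.0773 to 0.208 for DDIT4. The 24 h pattern was called in 1 of the 10 (1 to 1 with single time points left out), in 5 by limma's F test, 5 with PCHIP interpolation, 2 in the cleaned table, 2 without 16 h and 18 h, 2 with upper-quartile scaling and 0 at a period of 20 h. Over all genes it was called in 703, in 349 to 919 with single time points left out, 3102 by the F test, 1081 with PCHIP, 34 at 20 h, 138 at 28 h and 461 without 44 h and 46 h. Its difference between days was called in 0 of the 10, in 0 to 3 with single time points left out and in 2 without 44 h and 46 h. Over all genes it was called in 637, and in 307 to 1062 with single time points left out. At 46 h 6 of the 10 were at least 2-fold higher, 5 with median centring or upper-quartile scaling (PSAT1 then lay just under), and 114 of all genes, 196 at a pseudocount of 0.1. At 0 h it was 1 of the 10, 2 with the GC trend removed (DDIT4 in addition), and 86 of all genes, 140 at a pseudocount of 0.1. The settings without 44 h and 46 h, with hours paired, and those for 46 h and 0 h, were chosen after seeing the data. The cause of these differences was not tested.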
